A study of Homo sapiens
Mus musculus with 25 samples.

Results

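The comparison described here is that of tumours expressing PTPRK with the mutation C1089S against wild-type (WT) tumours. The tumours were xenografts of HT29, a long-established line from a human colorectal carcinoma, grown under the skin of nude mice, which lack mature T cells, and their polyadenylated RNA was sequenced. Tumours were assigned by the genotype in their labels, which gives 5 tumours labelled PTPRK KO + PTPRK. C1089S (PTPRK.C1089S tumours) and 5 labelled Wildtype (WT tumours), together 10 of the 25 tumours of the series. The other tumours are 5 of PTPRK KO cells with tGFP (KO), 6 of PTPRK KO cells with PTPRK (PTPRK) and 4 of PTPRK KO cells with PTPRK.R1095Q (PTPRK.RQ). All 25 tumours carry doxycycline as their treatment, the drug that switches on the reintroduced constructs. According to the study's methods, the knockout was made in HT29 cells with CRISPR/Cas9 and cells without surface PTPRK were sorted as a pool rather than grown from a single clone, and the reintroduced genes came on a lentiviral vector that also encodes a green fluorescent protein. How the PTPRK.C1089S tumours in particular were raised is not given in the sources used here. By their labels they differ from WT tumours in the knockout, the reintroduced gene and the mutation at once. The amount of PTPRK differed too, as counted below. A vector came with the reintroduced gene if these cells were made as the methods describe for the other lines. These differences cannot be told apart in this comparison. The labels do not say whether the tumours of a group came from separate mice. The study's methods describe separate mice, injected in the right flank, for the WT, KO, PTPRK and PTPRK.RQ lines. For the PTPRK.C1089S tumours this is not stated, and p-values measure the spread between these tumours.

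PTPRK is a receptor tyrosine phosphatase of the cell surface whose extracellular part binds PTPRK of the neighbouring cell and whose inner part carries the catalytic domain. The cysteine that is exchanged in C1089S is the catalytic residue, which attacks the phosphate of the substrate, and such cysteine mutants bind phosphorylated substrates without releasing them and are used as substrate traps. Interferons, whose response is followed below, act through receptors and JAK kinases on transcription factors such as STAT2 and IRF9, which switch on a large set of interferon-stimulated genes that sense and restrict viruses.

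Counts summed to between 43.7 and 59.4 M reads on exons of human genes per tumour, the median being 50.5 M, and 18823 of 38128 genes passed the filter on low counts and were tested. Levels are given as CPM, the count of a gene scaled to a common library size, with TMM factors between tumours. Tumours of the same group differed by far more than counting error, with a chi-square per gene of 13.9 to 47.9 between WT tumours and of 19.8 to 122 between PTPRK.C1089S tumours. PTPRK.C1089S replicate 4 stood apart, since its pairs gave the values from 69.1 to 122 and 84 of 11136 well-expressed genes lay more than 1 log2 unit from the median of the other 4 tumours, against 0 to 13 genes in the other PTPRK.C1089S tumours. Counts of called genes are therefore also given without it. Of 11 colorectal epithelial markers 4 were called lower (CDX2, CEACAM5, GPA33 and LGALS4) and KRT20 higher. Over all tested genes 6.93% were called lower and 7.37% higher. CDX2, CEACAM5 and GPA33 lost the call under some alternative settings, as given below. The keratins KRT8, KRT18 and KRT19, the adhesion molecule EPCAM and E-cadherin (CDH1) had log2 fold changes between −0.12 and 0.02 and were not called. Of 25 markers of fibroblasts, vessels and immune cells, 13 passed the filter and 0 were called by edgeR, with 3 at an unadjusted p under 0.05 and 0 by DESeq2. Their summed level over all 25 members was 100 to 107.5 CPM in PTPRK.C1089S and 92.1 to 109 CPM in WT tumours, and THY1 and KDR had no count in any of the 10 tumours. The defining immune marker PTPRC had 0 to 15 counts per PTPRK.C1089S tumour and 0 to 1 per WT tumour. These are counts on human genes, which reads of the mouse host enter only where they align to human sequence. The amount of host cells was therefore not measured by these markers.

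PTPRK (ENSG00000152894, chromosome 6, 127968785 to 128520616 of GRCh38) was the gene knocked out and reintroduced, so its level checks whether it was reintroduced. The level cannot tell the reintroduced forms apart, and the C1089S mutation itself was not checked here. PTPRK was counted at 1378, 1481, 1774, 1761 and 1139 CPM in PTPRK.C1089S replicates 1 to 5 and at 333, 309.8, 322, 314 and 298 CPM in WT replicates 1 to 5. All 5 PTPRK.C1089S tumours lay far above all WT tumours, with a ratio of the means of 4.78. The log2 CPM differed by 2.24, and an exact permutation test, two-sided, gave p = 0.00794 over 252 splits of the tumours, which is the smallest p this design allows. The log2 fold change was 2.26 ± 0.22 (SE), with an adjusted p of 1.1e-06 by the quasi-likelihood test of edgeR after Benjamini-Hochberg adjustment (edgeR adjusted p below). The mean level ± SD was 1507 ± 269 CPM in PTPRK.C1089S tumours (n = 5), beside 45.2 ± 19.2 CPM for KO (n = 5), 1853 ± 354 CPM where PTPRK was reintroduced (n = 6) and 1298 ± 308 CPM where PTPRK.RQ was (n = 4). PTPRK-AS1, which overlaps PTPRK and was counted without regard to strand, had a log2 fold change of 2.91 ± 0.25, and its reads cannot be told apart from those of PTPRK.

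**Figure D1:**
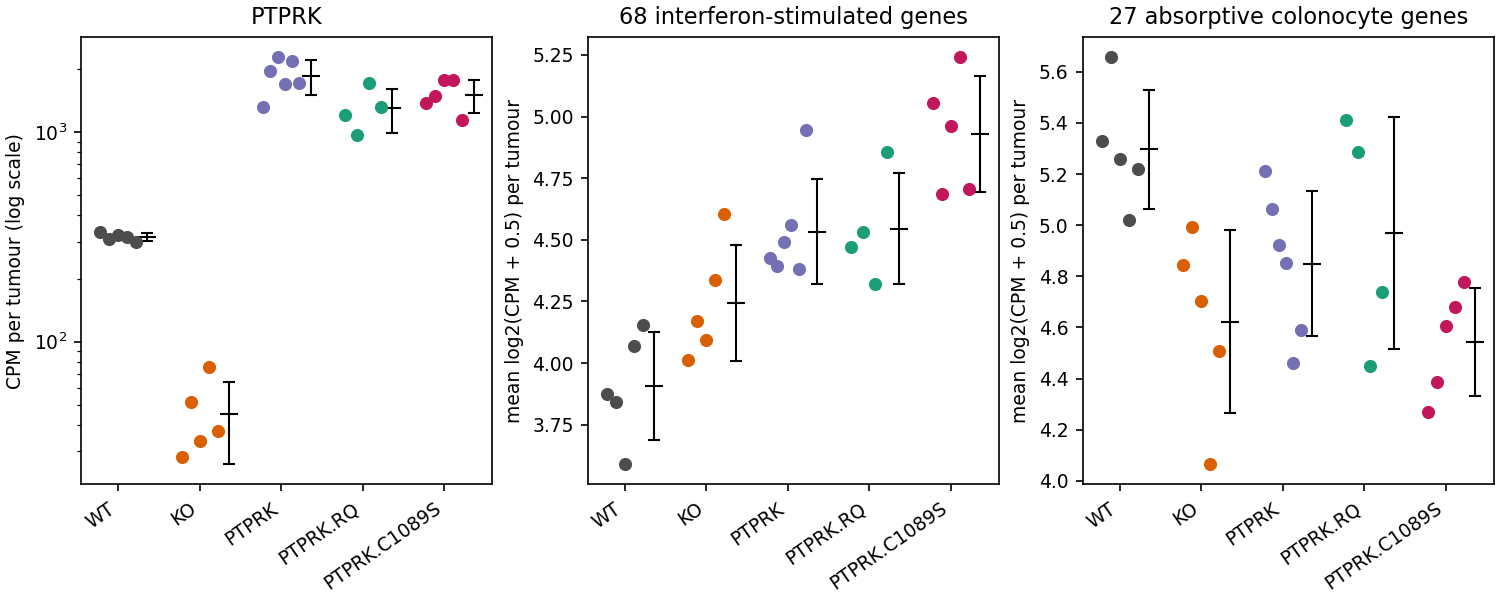
PTPRK in CPM on a log axis (left), and the mean log2(CPM + 0.5) of 68 interferon-stimulated genes (middle) and 27 absorptive colonocyte genes (right), in each tumour of the 5 groups, with points for tumours and bars for mean ± SD. PTPRK lies between 1139 and 1774 CPM in the PTPRK.C1089S tumours, the interferon-stimulated mean lies between 4.69 and 5.24 in PTPRK.C1089S and between 3.59 and 4.16 in WT tumours, and the colonocyte mean is lower in every PTPRK.C1089S than in every WT tumour.

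Across all genes, 2693 of 18823 tested genes (14.3%) were called at an edgeR adjusted p under 0.05, 1388 higher (7.37%) and 1305 lower (6.93%) in PTPRK.C1089S tumours. Without PTPRK.C1089S replicate 4 the calls were 1034 higher and 1017 lower, and without WT replicate 2 they were 919 higher and 777 lower. Most changes were small: the median absolute log2 fold change of the called genes was 0.46, and 542 called genes changed by at least 1 log2 unit, 379 of them higher and 163 lower. Over all tested genes the median log2 fold change was 0.01, and 2235 genes (11.9%) had no overlap between the 5 and 5 tumours. In bulk tumours, fewer cells of a type and less RNA per cell cannot be told apart. Compared with the same WT tumours, 377 genes (2.0%) were called in KO, 6711 (35.7%) in PTPRK and 4640 (24.7%) in PTPRK.RQ tumours.

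The largest rises among well-expressed genes without overlap, apart from PTPRK and PTPRK-AS1, were in a cancer-testis antigen, in genes of the matrix and its turnover, in interferon-stimulated genes and in a chemokine. The cancer-testis antigen MAGEA3 (chromosome X, 152698767 to 152702347) was at 29.0, 23.3, 22.4, 22.9 and 13.0 CPM in PTPRK.C1089S replicates 1 to 5 and at 3.11, 3.77, 2.86, 3.06 and 4.87 CPM in WT replicates 1 to 5, a log2 fold change of 2.64 ± 0.34 (edgeR adjusted p = 2.63e-05). The matrix glycoprotein tenascin C (TNC, chromosome 9, 115019575 to 115118257) was at 20.1, 7.92, 11.6, 21.6 and 9.66 CPM against 3.07, 1.35, 2.77, 3.58 and 2.42 CPM (2.42 ± 0.47, edgeR adjusted p = 0.00168). In both genes every PTPRK.C1089S tumour exceeded every WT tumour, and for TNC replicates 1 and 4 stood highest. PLAU, the urokinase that activates plasminogen, was at 12.9, 6.08, 7.82, 14.8 and 7.19 CPM against 2.50, 1.202, 1.38, 3.05 and 2.30 CPM (2.21 ± 0.34, edgeR adjusted p = 0.000148). CEMIP, which takes part in hyaluronan breakdown, was at 157, 134, 231, 223 and 109.6 CPM against 37.3, 37.7, 30.4, 45.2 and 44.8 CPM (2.13 ± 0.30, edgeR adjusted p = 7.27e-05). PLAU was again highest in replicates 1 and 4, and neither gene overlapped between the groups. BAMBI, a decoy receptor of the TGF-beta family, and PGM5, a relative of phosphoglucomutase found at cell adhesions, rose by 1.90 and 1.93 log2 units. MAGEA6 and MAGEA12, close copies of MAGEA3 named here after their values were seen, also rose, by 3.81 and 2.96 log2 units, and reads shared between such copies make the values of each uncertain.

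The interferon-stimulated genes rose together. Of the 68 listed genes, all of which passed the filter, 59 were called higher and 0 lower, against 7.37% higher over all genes. The median log2 fold change of the 68 was 1.02, against 0.01 over all genes, and 67 were above 0. In 54 of the 68 every PTPRK.C1089S tumour exceeded every WT tumour, against 5.85% of all genes. The 50 genes nearest to each member had a median log2 fold change of 0.04 when the median was taken over the members. The 9 members not called were ISG20, TRIM5, TRIM25, GBP2, GBP3, APOL2, TDRD7, NMI and PARP10. DESeq2 called 62 members. Without PTPRK.C1089S replicate 4, 51 were called higher and 0 lower, with a median of 0.97.

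Among genes that sense viral RNA or act in its breakdown, OAS2, OASL and DDX60 had log2 fold changes well above the median of the list, and OAS1, OAS3, DDX58, IFIH1, DHX58 and DDX60L lay near it. OAS2 (chromosome 12, 112978395 to 113011723), which makes the oligoadenylates that activate RNase L, was at 73.7, 49.4, 76.4, 98.8 and 52.9 CPM in PTPRK.C1089S replicates 1 to 5 and at 8.57, 10.7, 7.62, 18.7 and 21.4 CPM in WT replicates 1 to 5. The lowest PTPRK.C1089S tumour was above the highest WT tumour, and the log2 fold change was 2.39 ± 0.35 (edgeR adjusted p = 0.000144). OASL, a relative without that enzyme activity, was at 54.5, 39.6, 42.0, 31.3 and 33.2 CPM against 13.2, 11.01, 8.43, 14.5 and 14.1 CPM, and had with 5.38e-07 the lowest edgeR adjusted p of the list (log2 fold change 1.71 ± 0.16). OAS1 and OAS3 rose by 1.002 and 0.95 log2 units. The cytoplasmic RNA sensors DDX58 (RIG-I) and IFIH1 (MDA5) and their regulator DHX58 (LGP2) rose by 0.95, 0.97 and 1.03 log2 units. DHX58 was at 16.7, 13.8, 14.8, 16.6 and 14.8 CPM against 7.72, 7.55, 5.63, 8.26 and 8.22 CPM, a narrow range in each group with no overlap. The helicase-like DDX60 rose by 1.67 and its relative DDX60L by 0.92 log2 units, and PTPRK.C1089S replicate 4 was the highest tumour for both. IFI16, a DNA sensor of the nucleus, had the largest fold change of the list, 3.98 ± 0.59 (edgeR adjusted p = 9.07e-05), from low levels of 0.0188, 0.433, 0.0225, 0.413 and 0.299 CPM in WT to 3.81, 1.77, 2.79, 7.71 and 2.83 CPM in PTPRK.C1089S tumours.

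The effector genes moved the same way. IFIT1 (chromosome 10, 89392546 to 89406487), which binds viral RNA lacking the host cap methylation, was at 56.2, 34.4, 40.3, 47.5 and 30.2 CPM in PTPRK.C1089S and at 8.29, 6.32, 3.83, 11.5 and 13.2 CPM in WT tumours, replicates 1 to 5 each. No value overlapped, and the log2 fold change was 2.27 ± 0.33 (edgeR adjusted p = 0.000112). Its relatives IFIT2, IFIT3 and IFIT5 rose by 1.27, 1.57 and 1.33 log2 units. The antiviral GTPases MX1 and MX2 rose by 1.34 and 1.86 log2 units. MX1 ranged over 15.9 to 26.9 CPM in WT and 44.5 to 67.0 CPM in PTPRK.C1089S tumours, and MX2 over 3.22 to 6.90 CPM in WT and 13.2 to 23.9 CPM in PTPRK.C1089S tumours. The membrane proteins IFITM1 and IFITM3, which hinder virus entry, rose by 1.61 and 1.504 log2 units and BST2, which tethers virus particles, by 1.01. SAMD9L, a growth and translation inhibitor, was at 6.86, 5.06, 5.86, 14.1 and 4.41 CPM against 2.32, 1.49, 1.06, 2.51 and 2.30 CPM (1.90 ± 0.33), and replicate 4 was the highest PTPRK.C1089S tumour by a wide margin.

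ISG15 is a ubiquitin-like protein that is coupled to other proteins, and the members of its system were called higher at every step. ISG15 itself rose by 1.16 log2 units and ranged over 52.8 to 70.8 CPM in WT and 111 to 172 CPM in PTPRK.C1089S tumours. The activating enzyme UBA7, the conjugating enzyme UBE2L6 and the ligase HERC5 rose by 0.64, 1.75 and 1.34 log2 units, but HERC5 was not called under 7 of 16 alternatives, the fits without PTPRK.C1089S replicate 1 or 4 or WT replicate 1, 2 or 4 among them (largest edgeR adjusted p = 0.12). USP18, which removes ISG15 and dampens signalling at the interferon receptor, was at 10.4, 11.4, 11.02, 9.55 and 9.16 CPM against 4.93, 4.47, 4.80, 5.04 and 4.69 CPM, a log2 fold change of 1.11 ± 0.15 (edgeR adjusted p = 1.59e-05). PARP9 and its partner DTX3L, which overlap on the chromosome, rose by 1.18 and 0.47 log2 units. The T cell chemokines CXCL10 and CXCL11 rose by 2.20 and 2.36 log2 units at low levels, no more than 1.85 and 3.05 CPM in any PTPRK.C1089S tumour.

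**Figure D2:**
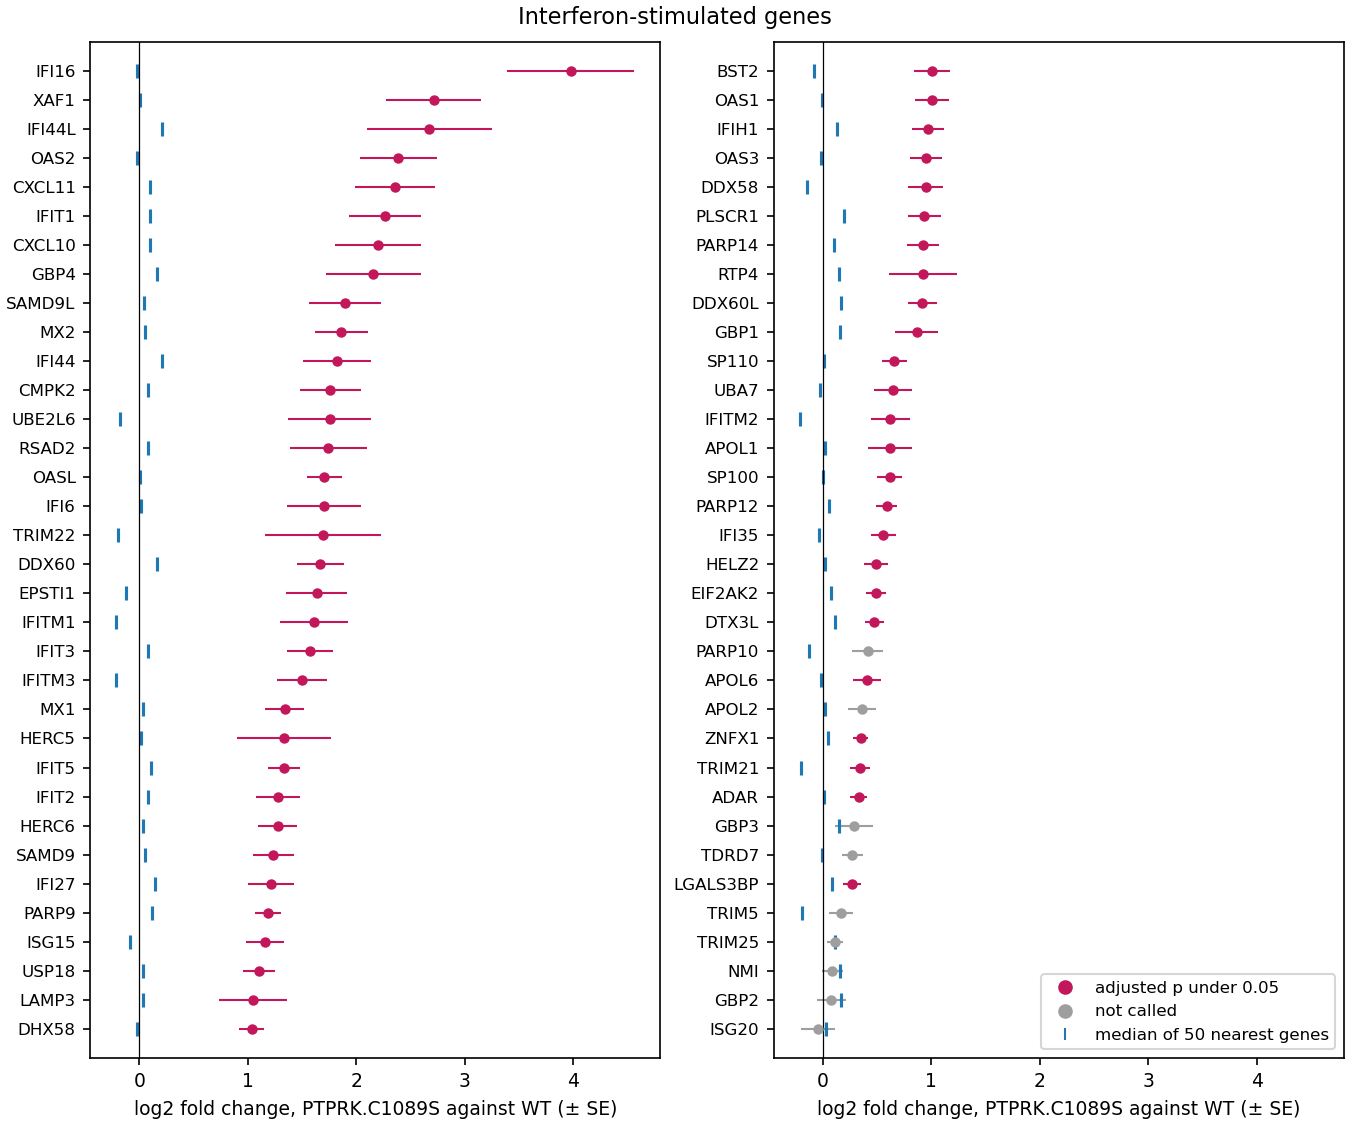
Log2 fold change ± SE of PTPRK.C1089S against WT tumours for each of the 68 interferon-stimulated genes, ordered by size, in red where the edgeR adjusted p is under 0.05 and in grey where it is not, with a blue tick for the median of the 50 nearest genes. The red points run from 0.27 (LGALS3BP) to 3.98 (IFI16), and the ticks of the neighbours stay close to 0.

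Of 30 interferon ligands, receptors and signalling genes, 24 passed the filter, 9 were called higher and 2 lower (all genes: 7.37% and 6.93%), with a median log2 fold change of 0.12. Without PTPRK.C1089S replicate 4, 7 were called higher and 1 lower. IRF9 and STAT2, which act together in a transcription factor complex, both rose. IRF9 was at 37.7, 35.9, 37.7, 37.8 and 36.5 CPM in PTPRK.C1089S and at 19.96, 18.6, 17.6, 21.5 and 22.5 CPM in WT replicates 1 to 5, with a narrow spread in each group (0.89 ± 0.12, edgeR adjusted p = 1.59e-05). STAT2 rose by 0.44 log2 units. The receptor subunits IFNAR2 and IFNGR1 rose by 0.33 and 0.36 log2 units, whereas IFNAR1, IFNGR2, IFNLR1 and IL10RB had values between −0.0012 and 0.11 and were not called. The kinases JAK1, JAK2 and TYK2 were at 0.13, −0.07 and −0.0011 log2 units and not called. Among genes of interferon production, STING1, the adaptor of DNA sensing, IRF7 and the RNA receptor TLR3 rose by 0.63, 0.46 and 1.04 log2 units. MAVS, the adaptor of the RNA sensors, and IRF3 fell by 0.31 log2 units each. IRF3 lies on chromosome 19 among 50 consecutive tested genes, from 49061066 to 50053414, with a median log2 fold change of −0.31. Of these 50 genes 22 were called lower and 1 higher, against 6.93% and 7.37% over all genes. The part of position in the fall of IRF3 was not tested. Calls were lost without single tumours for IRF3 (7 of 16 alternatives, largest edgeR adjusted p = 0.131), for IFNAR2 (without PTPRK.C1089S replicate 4, WT replicate 2 or WT replicate 3, largest 0.0667) and for TLR3 (without PTPRK.C1089S replicate 4 or WT replicate 3, largest 0.0788). SOCS3, a feedback inhibitor of JAK kinases, was at 4.16, 3.39, 3.08, 3.48 and 3.17 CPM against 0.810, 1.13, 1.24, 1.60 and 1.10 CPM (1.55 ± 0.30, edgeR adjusted p = 0.000875), with no overlap.

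Transcripts of the 7 listed interferon ligands were close to the limit of detection, and the IFNA genes were not among those listed. IFNK and IFNG had 0 counts in all 10 tumours, where 3 counts correspond to 0.0505 to 0.0686 CPM. IFNB1 had 8 counts over the 5 PTPRK.C1089S tumours, up to 7 in 1 of them, and 1 count over the 5 WT tumours. IFNL1 had 16 counts against 2, and IFNL3 had 13 against 0, with at most 9 and 5 counts in 1 tumour. IFNL2, a near-identical copy of IFNL3, had 4 counts against 3. IFNE passed the filter, with 34 counts against 33. At these counts a difference in these transcripts was not detectable by the test across genes, which 6 of the 7 listed ligands did not enter.

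Placed beside the other groups, which share the WT tumours with this comparison, the interferon-stimulated genes gave 4 members higher and 1 lower in KO against WT (all genes: 0.776% higher and 1.23% lower), 50 higher and 1 lower in PTPRK against WT (17.5%) and 45 higher and 0 lower in PTPRK.RQ against WT (12.3%). The median log2 fold changes of the list were 0.32, 0.62 and 0.62, against 1.02 for PTPRK.C1089S. Tested directly, 50 members were higher and 0 lower in PTPRK.C1089S than in KO tumours (all genes: 8.89% higher), with a median of 0.73. In PTPRK.C1089S against PTPRK tumours 19 were higher and 0 lower (all genes: 7.49% higher and 5.76% lower), and against PTPRK.RQ tumours 7 were higher and 0 lower (2.77%). The mean log2 CPM of the 68 genes was 5.06, 4.69, 4.96, 5.24 and 4.70 in PTPRK.C1089S replicates 1 to 5 and 3.88, 3.84, 3.59, 4.07 and 4.16 in WT replicates 1 to 5. It ran from 4.01 to 4.61 in KO, from 4.38 to 4.95 in PTPRK and from 4.32 to 4.86 in PTPRK.RQ tumours, so the PTPRK.C1089S tumours lay above all WT and KO tumours and overlapped the upper ends of the other groups.

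MHC class I genes present peptides on the cell surface. Of 21 genes, 15 were called higher and 0 lower, against 7.37% higher over all genes, the median log2 fold change was 0.36, and 21 were above 0. Without PTPRK.C1089S replicate 4 there were again 15 higher and 0 lower. The class I light chain B2M was at 1303, 925, 963, 1368 and 974 CPM in PTPRK.C1089S and at 662, 648, 594, 628 and 656 CPM in WT replicates 1 to 5, with replicates 1 and 4 highest and no overlap (0.80 ± 0.14, edgeR adjusted p = 0.000395). HLA-C was at 202, 170.5, 193, 204 and 201 CPM against 116, 119, 104, 127 and 119 CPM (0.73 ± 0.10, edgeR adjusted p = 2.55e-05), and HLA-B, HLA-F and HLA-E rose by 1.34, 0.96 and 0.28 log2 units. HLA-E was not called under 4 of 16 alternatives (largest edgeR adjusted p = 0.0821), and reads shared among these similar HLA genes make the value of each uncertain. NLRC5, the transactivator of class I genes, rose by 1.25 log2 units and ranged over 3.69 to 5.65 CPM in WT and 9.59 to 12.5 CPM in PTPRK.C1089S tumours. The peptide transporter TAP1 was at 51.3, 45.6, 43.2, 50.3 and 38.8 CPM against 17.2, 21.4, 20.5, 22.8 and 24.8 CPM (1.10 ± 0.16), and TAP2 rose by 0.63. The immunoproteasome subunits PSMB8 and PSMB9 rose by 0.63 and 1.69 log2 units, while PSMB10 was at 0.03 and was not called. The chaperones of peptide loading, CALR, CANX, PDIA3, TAPBP and TAPBPL, had values between 0.04 and 0.20 and were not called. In KO, PTPRK and PTPRK.RQ against the shared WT tumours, 1, 8 and 10 members were called higher (all genes: 0.776%, 17.5% and 12.3%) and 0, 1 and 1 lower (1.23%, 18.1% and 12.4%).

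Of 22 NF-kB response genes and chemokines 19 passed the filter, 8 were called higher and 1 lower (all genes: 7.37% and 6.93%), and 10 were not called, with a median log2 fold change of 0.51 and 7 higher and 1 lower without PTPRK.C1089S replicate 4. CXCL8 (chromosome 4, 73740541 to 73743716), which attracts neutrophils, was at 40.6, 24.1, 13.5, 29.8 and 21.4 CPM in PTPRK.C1089S and at 5.82, 2.81, 4.87, 8.09 and 5.63 CPM in WT replicates 1 to 5, with no overlap (2.24 ± 0.35, edgeR adjusted p = 0.00023). CXCL1 was at 10.6, 7.29, 4.75, 13.6 and 9.74 CPM against 5.05, 1.64, 1.76, 3.73 and 3.01 CPM, and PTPRK.C1089S replicate 3 fell below the highest WT tumour (1.59 ± 0.30, edgeR adjusted p = 0.000884). TNFAIP2, the macrophage growth factor CSF1, the adhesion molecule ICAM1 and the apoptosis inhibitor BIRC3 rose by 1.39, 1.57, 0.73 and 0.73 log2 units, and NFKB1, the p105 precursor, fell by 0.26 but was not called without WT replicate 3 (edgeR adjusted p = 0.0754). The inhibitors NFKBIA and TNFAIP3, direct targets of NF-kB, were at 0.12 and 0.38 log2 units and were not called. In KO against WT tumours 0 members were called by edgeR (1 at an unadjusted p under 0.05) and 0 by DESeq2. In PTPRK and PTPRK.RQ against WT, 7 and 6 were higher (all genes: 17.5% and 12.3%) and 4 and 3 lower (18.1% and 12.4%). Tested directly, 11, 5 and 4 were higher in PTPRK.C1089S than in KO, PTPRK and PTPRK.RQ tumours (8.89%, 7.49% and 2.77%), with 0, 0 and 1 lower.

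Of 15 complement genes 7 were called higher and 0 lower (all genes: 7.37% and 6.93%), 8 were not called and 12 were above 0, and 6 higher and 0 lower without PTPRK.C1089S replicate 4. CD55, which protects cells from complement, was at 254, 182, 201, 342 and 189 CPM against 115, 84.2, 85.8, 89.6 and 102.5 CPM with no overlap (1.29 ± 0.15, edgeR adjusted p = 8.7e-06). The protective CD46 and CD59 rose by 0.33 and 0.37 log2 units, and the components CFB and C5 by 0.71 and 0.68. CD46 was not called under 5 of 16 alternatives (largest edgeR adjusted p = 0.133). C3, at no more than 0.584 CPM in any PTPRK.C1089S tumour, had a log2 fold change of 2.42 ± 0.74 that was called here but not under 5 of 16 alternatives (largest edgeR adjusted p = 0.0743). In KO, PTPRK and PTPRK.RQ against WT tumours 1, 5 and 6 members were higher (all genes: 0.776%, 17.5% and 12.3%) and 0 lower. Tested directly, 4 and 1 were higher and 0 lower in PTPRK.C1089S than in KO and PTPRK tumours (8.89% and 7.49% higher). Against PTPRK.RQ tumours 0 were called by edgeR (3 at an unadjusted p under 0.05) and 0 by DESeq2.

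**Figure D3:**
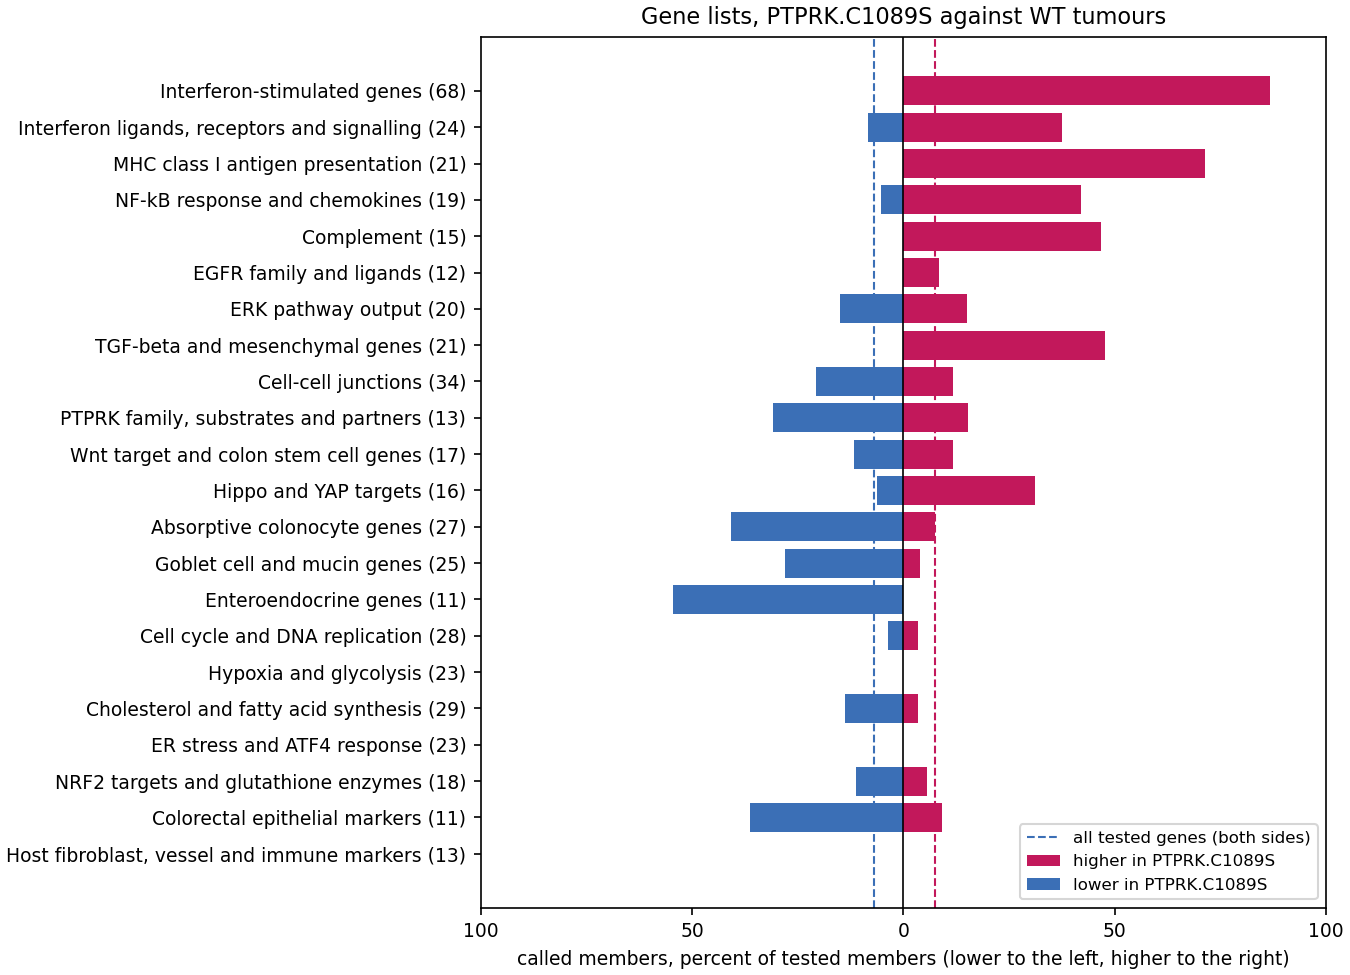
Share of tested members called higher (red, to the right) and lower (blue, to the left) in PTPRK.C1089S against WT tumours for 22 gene lists, with the number of tested members in brackets and dashed lines at the shares over all tested genes, 7.37% higher and 6.93% lower. The interferon-stimulated, MHC class I, NF-kB, complement and mesenchymal lists extend to the right, and the colonocyte, goblet, enteroendocrine and colorectal marker lists mostly to the left.

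Genes of TGF-beta signalling and of the mesenchymal state were called in a single direction. Of 24 genes 21 passed the filter, 10 were called higher and 0 lower (all genes: 7.37% and 6.93%), 21 were above 0, and the median log2 fold change was 0.39. In all 10 called genes the tumours did not overlap, and 9 were called higher without PTPRK.C1089S replicate 4. TGFBI (chromosome 5, 136028988 to 136063818), a matrix protein induced by TGF-beta, was at 468, 285, 366, 588 and 286 CPM in PTPRK.C1089S and at 149.8, 87.4, 112, 156 and 137 CPM in WT replicates 1 to 5 (1.63 ± 0.26, edgeR adjusted p = 0.00023). The matrix protease MMP7 was at 405, 316, 299, 506 and 251 CPM against 159, 115, 165, 155 and 192 CPM (1.18 ± 0.25, edgeR adjusted p = 0.00308). For both genes replicates 1 and 4 were the highest PTPRK.C1089S tumours. Fibronectin (FN1) and the intermediate filament vimentin (VIM) rose by 1.73 and 1.68 log2 units from low levels. FN1 ranged over 0.716 to 1.85 CPM in WT and 2.44 to 4.16 CPM in PTPRK.C1089S tumours, and VIM over 0.433 to 0.740 CPM in WT and 1.63 to 2.30 CPM in PTPRK.C1089S tumours. The ligand TGFB2, the signal transducer SMAD3 and the transcription factor SNAI1 rose by 1.16, 0.40 and 0.49 log2 units, although TGFB2 and SNAI1 lost the call under 7 and 7 of 16 alternatives (largest edgeR adjusted p 0.117 and 0.0834). The ligand TGFB1, the receptors TGFBR1 and TGFBR2 and the transcription factors ZEB1 and ZEB2 had values between 0.06 and 0.39 and were not called. In KO, PTPRK and PTPRK.RQ against WT tumours 1, 6 and 5 of the 21 members were called higher (all genes: 0.776%, 17.5% and 12.3%) and 0, 1 and 1 lower (1.23%, 18.1% and 12.4%). Tested directly, 12 members were higher and 0 lower in PTPRK.C1089S than in KO tumours (all genes: 8.89% higher), 9 higher and 0 lower than in PTPRK tumours (7.49%) and 5 higher and 0 lower than in PTPRK.RQ tumours (2.77%).

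Of 18 genes of the Hippo pathway and its YAP output 16 passed the filter, 5 were called higher and 1 lower, against 7.37% and 6.93% over all genes, and 3 higher and 1 lower without PTPRK.C1089S replicate 4. The 6 calls became 3 without PTPRK.C1089S replicate 1 or WT replicate 3 and 2 without WT replicate 2. The receptor tyrosine kinase AXL was at 65.3, 49.7, 56.3, 63.4 and 56.7 CPM against 35.9, 18.8, 22.4, 40.5 and 27.5 CPM, with no overlap (1.005 ± 0.25, edgeR adjusted p = 0.00836), although its 50 neighbours on chromosome 19 had a median of −0.38. CCN1, a secreted target of YAP, was at 32.4, 18.5, 27.99, 22.7 and 25.1 CPM against 17.6, 7.72, 10.6, 17.4 and 13.8 CPM (0.91 ± 0.24, edgeR adjusted p = 0.0129). WWTR1 (TAZ) had a log2 fold change of 1.39 ± 0.39, with PTPRK.C1089S replicate 4 at 19.3 CPM and the other 4 at 5.03 to 8.67 CPM, and was not called without replicate 4, WT replicate 2 or WT replicate 3 or in the fit of the 10 tumours alone (largest edgeR adjusted p = 0.0938). YAP1 itself was at 0.10 and not called.

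Genes of differentiated epithelial cells were called mostly lower. Of 32 absorptive colonocyte genes 27 passed the filter, 11 were called lower and 2 higher, against 6.93% lower over all genes, with a median log2 fold change of −0.68. Without PTPRK.C1089S replicate 4, 10 were lower and 2 higher, and the 13 calls became 8 without PTPRK.C1089S replicate 1 or WT replicate 2. FABP1 (chromosome 2, 88122982 to 88128062), the fatty acid binding protein of enterocytes, was at 3.004, 1.75, 3.54, 2.88 and 3.02 CPM in PTPRK.C1089S and at 15.6, 31.9, 19.6, 11.03 and 16.5 CPM in WT replicates 1 to 5. All PTPRK.C1089S tumours lay below all WT tumours, as in 6.02% of all genes, and the log2 fold change was −2.74 ± 0.46 (edgeR adjusted p = 0.000449). HNF4A, a master regulator of the enterocyte, was at 125, 153, 147, 112 and 155 CPM against 212, 287, 256, 209 and 227 CPM (−0.78 ± 0.12, edgeR adjusted p = 0.000105), without overlap. CDX2, the intestinal transcription factor, was at 11.5, 14.6, 19.3, 21.5 and 31.1 CPM against 45.3, 67.0, 41.9, 39.0 and 40.1 CPM (−1.25 ± 0.37, edgeR adjusted p = 0.026), and was not called without PTPRK.C1089S replicate 1 or 2 or WT replicate 2 (largest edgeR adjusted p = 0.0808). PHGR1 and CEACAM7, both products of the colon surface, fell by 2.06 and 1.87 log2 units. PHGR1 ranged over 67.95 to 105 CPM in WT and 5.44 to 42.9 CPM in PTPRK.C1089S tumours. The neighbours of CEACAM7 on chromosome 19 had a median of −0.37. SI, ANPEP, FABP2 and ALPI, enzymes and a carrier of the brush border cell, had log2 fold changes of −2.01 ± 0.75, −1.92 ± 0.71, −1.81 ± 0.73 and −1.64 ± 0.57 and were not called. KRT20 and the sulphate transporter SLC26A2 went up instead, by 0.44 and 0.57 log2 units.

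Among the 25 goblet cell and mucin genes, all tested, 7 were called lower and 1 higher (all genes: 6.93% and 7.37%), with a median of −0.50 and 6 lower and 1 higher without PTPRK.C1089S replicate 4. MUC2 (chromosome 11, 1074875 to 1110511), the main mucin of the colon, was at 32.0, 47.1, 55.1, 56.1 and 70.0 CPM in PTPRK.C1089S and at 163, 263, 198, 164 and 124 CPM in WT replicates 1 to 5. It was lower in all PTPRK.C1089S than in all WT tumours (−1.81 ± 0.32, edgeR adjusted p = 0.000822). The secretory transcription factors ATOH1 and SPDEF fell by 0.68 and 0.51 log2 units, ATOH1 not being called without PTPRK.C1089S replicate 1 (edgeR adjusted p = 0.0535), and the membrane mucin MUC1 rose by 1.27. TFF3, ZG16, REG4 and MUC5B had log2 fold changes from −0.90 to −0.54 and were not called.

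Enteroendocrine genes had the median furthest from 0 of the 22 lists, −1.14. Of 16 genes 11 passed the filter, 6 were called lower and 0 higher (all genes: 6.93% and 7.37%), with the same counts without PTPRK.C1089S replicate 4, and in all 6 the groups did not overlap. The hormone somatostatin (SST, chromosome 3, 187668912 to 187670394) was at 1.89, 3.99, 4.19, 1.06 and 2.16 CPM in PTPRK.C1089S and at 15.9, 15.3, 13.97, 16.7 and 15.9 CPM in WT replicates 1 to 5 (−2.55 ± 0.36, edgeR adjusted p = 5.88e-05). NEUROG3, which commits cells to the endocrine lineage, was at 4.66, 9.02, 7.38, 4.28 and 4.75 CPM against 10.9, 15.7, 15.9, 13.8 and 19.1 CPM (−1.32 ± 0.22, edgeR adjusted p = 0.000198). The WT tumours were tightly grouped for SST, and the PTPRK.C1089S tumours all lay below 4.2 CPM. The endocrine transcription factors INSM1 and PAX4 and the granule protein SCG2 fell by 1.19, 1.34 and 1.14 log2 units. NKX2-2, under 0.86 CPM in every tumour, fell by 1.18 but was not called under 9 of 16 alternatives (largest edgeR adjusted p = 0.125). The hormone GCG was at 1.04 ± 0.65 and not called.

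The same 3 lists were counted in the groups that share the WT tumours. In KO, PTPRK and PTPRK.RQ tumours against WT, 1.23%, 18.1% and 12.4% of all genes were called lower and 0.776%, 17.5% and 12.3% higher. Of the 27 colonocyte genes 6, 6 and 5 were called lower and 0, 3 and 3 higher, so the share called lower was far above that of all genes in KO and closer to it in PTPRK and PTPRK.RQ tumours. Of the 25 goblet genes 2, 8 and 0 were lower and 0, 2 and 7 higher. Of the 11 enteroendocrine genes 0, 6 and 7 were lower and 0, 1 and 0 higher. In the same order of groups, the median log2 fold changes were −0.56, −0.47 and −0.10 for colonocyte genes, beside −0.68 for PTPRK.C1089S. They were −0.23, −0.40 and 0.13 for goblet genes, beside −0.50, and −0.06, −1.24 and −1.35 for enteroendocrine genes, beside −1.14. In PTPRK.C1089S against KO tumours the medians of the colonocyte, goblet and enteroendocrine lists were 0.0019, −0.27 and −0.70. Tested directly against KO tumours (all genes: 8.89% higher and 7.35% lower), PTPRK.C1089S tumours had 4 colonocyte genes higher and 2 lower, 2 goblet genes higher and 4 lower, and 4 enteroendocrine genes lower and 0 higher. Against PTPRK tumours (7.49% higher and 5.76% lower) 1 colonocyte gene was higher and 0 lower, 0 goblet genes were called by edgeR (4 at an unadjusted p under 0.05) and 0 by DESeq2, and 1 enteroendocrine gene was higher and 0 lower. Against PTPRK.RQ tumours (2.77% higher and 2.16% lower) 4 colonocyte genes and 10 goblet genes were lower and 0 higher, and 0 enteroendocrine genes were called by edgeR (3 at an unadjusted p under 0.05) and 0 by DESeq2.

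**Figure D4:**
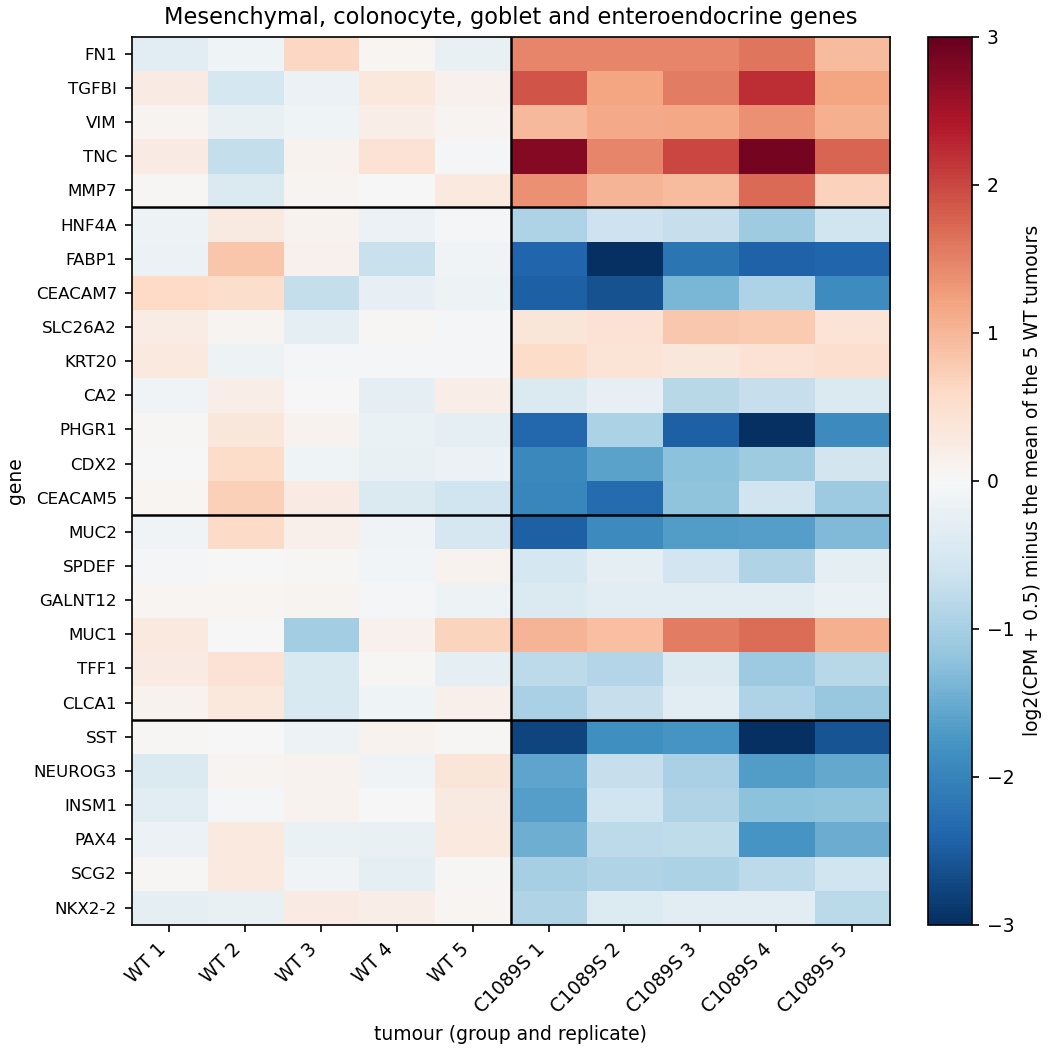
Heat map of called mesenchymal, absorptive colonocyte, goblet and enteroendocrine genes, not every called member being drawn (rows, separated by lines) in the 5 WT and 5 PTPRK.C1089S tumours (columns), as log2(CPM + 0.5) minus the mean of the WT tumours, with the colour scale ending at −3 and 3. The mesenchymal rows are red in all PTPRK.C1089S tumours, and the lineage rows are blue apart from SLC26A2, KRT20 and MUC1.

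Further falls without overlap lay outside these lists. CYBRD1, an iron reductase, was at 3.24, 2.96, 3.88, 6.38 and 3.77 CPM in PTPRK.C1089S and at 18.8, 21.7, 17.4, 19.1 and 19.9 CPM in WT replicates 1 to 5 (−2.26 ± 0.33, edgeR adjusted p = 0.000125). DPEP1, a dipeptidase, was at 4.46, 4.56, 5.23, 6.40 and 8.56 CPM against 23.6, 42.0, 26.8, 16.7 and 17.9 CPM (−2.12 ± 0.40, edgeR adjusted p = 0.00131). Both genes were low in each of the 5 PTPRK.C1089S tumours. SLC7A2, a carrier of basic amino acids, C15orf48 and TRABD2A, a Wnt protease, fell by 1.80, 2.21 and 1.57 log2 units. The brush border protease MEP1A had a log2 fold change of −1.63 ± 0.53 but was not called under 10 of 16 alternatives (largest edgeR adjusted p = 0.125). The sulphotransferase CHST5 fell by 1.60 log2 units and was not called without PTPRK.C1089S replicate 1 or WT replicate 2 (largest edgeR adjusted p = 0.0725).

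PTPRK removes phosphate from proteins of cell junctions. Of 14 listed relatives, substrates and partners 13 passed the filter, PTPRK included, with 2 called higher and 4 lower, against 7.37% and 6.93% over all genes. The 6 calls became 3 without PTPRK.C1089S replicate 1 or 3 or without WT replicate 2 or 3. The related receptor phosphatase PTPRM was at 8.12, 5.38, 5.52, 10.6 and 7.07 CPM in PTPRK.C1089S and at 3.75, 1.73, 1.55, 2.82 and 2.34 CPM in WT replicates 1 to 5, with no overlap (1.58 ± 0.27, edgeR adjusted p = 0.000346). PTPRM also had log2 fold changes of −0.19 in KO, 1.03 in PTPRK and 1.73 in PTPRK.RQ against WT tumours. ARHGAP35 (p190RhoGAP) was at 231, 264, 283, 251 and 268 CPM against 354, 378, 344, 365 and 335 CPM (−0.45 ± 0.07, edgeR adjusted p = 9.41e-05), and its neighbours on chromosome 19 had a median of −0.29. PKP2 (plakophilin 2), AFDN (afadin) and CTNND1 (p120 catenin) fell by 0.37, 0.22 and 0.19 log2 units, and lost the call under 5, 9 and 11 of 16 alternatives (largest edgeR adjusted p 0.12, 0.134 and 0.146). The neighbours of CTNND1 had a median of −0.17. PTPRU, PARD3, PKP4, ARHGAP5, FAM83B, DLG5 and EPHB4 had log2 fold changes between −0.22 and 0.57 and were not called. DLG5, a scaffold protein, came nearest, at 87.4, 89.1, 91.9, 94.3 and 87.7 CPM against 72.7, 74.5, 79.7, 84.2 and 81.1 CPM (0.20 ± 0.07, edgeR adjusted p = 0.0527).

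Of 34 genes of cell-cell junctions 4 were called higher and 7 lower, with a median of −0.04, against 7.37% and 6.93% over all genes, and 3 higher and 6 lower without PTPRK.C1089S replicate 4. The 11 calls became 5 without PTPRK.C1089S replicate 1, WT replicate 2 or WT replicate 3, and 7 without PTPRK.C1089S replicate 3 or WT replicate 5. P-cadherin (CDH3) was at 103, 105, 100.3, 100.5 and 112 CPM against 76.0, 68.6, 77.6, 74.5 and 83.8 CPM with no overlap (0.45 ± 0.10, edgeR adjusted p = 0.00209). PKP1, a plakophilin, and NECTIN4 rose by 0.94 and 0.59 log2 units, while NECTIN1, NECTIN2 and the intestinal cadherin CDH17 fell by 0.51, 0.33 and 1.25. CDH17 was not called under 8 of 16 alternatives (largest edgeR adjusted p = 0.109). The core genes CDH1, CTNNA1, JUP, DSP, TJP1 and OCLN had values between −0.14 and 0.03 and were not called.

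Of 12 tested EGFR family genes 1 was called higher and 0 lower, a share near the 7.37% of all genes. This was TGFA, a ligand of EGFR, at 109.9, 92.0, 102.3, 116 and 109 CPM against 93.2, 72.1, 69.4, 82.0 and 81.5 CPM (0.41 ± 0.09, edgeR adjusted p = 0.00317), and EGFR was at 0.14 ± 0.10 and not called. DESeq2 and the fits without PTPRK.C1089S replicate 2 or WT replicate 1 called 3 members of this list, and the fits without PTPRK.C1089S replicate 4 or 5 called 2. Of 20 genes of ERK pathway output 3 were higher and 3 lower (all genes: 7.37% and 6.93%), and the 6 calls became 3 without PTPRK.C1089S replicate 1 or WT replicate 2, with MYC at −0.38 ± 0.09 and ETV4 at −0.39 ± 0.09 among the falls and IER3 at 0.54 ± 0.13 among the rises. DUSP6, SPRY4 and FOSL1, common readouts of ERK, were at 0.25, 0.03 and 0.31 and not called. Of 17 tested Wnt targets and colon stem cell genes 2 were higher and 2 lower (all genes: 7.37% and 6.93%), becoming 1 and 2 without PTPRK.C1089S replicate 4. AXIN2 and LGR5 were at 0.16 ± 0.10 and 0.65 ± 0.41 and not called. The receptors KREMEN1 and EPHB3 had log2 fold changes of 0.69 ± 0.15 and −0.66 ± 0.17.

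Proliferation genes gave 1 rise (CDK1, 0.31 ± 0.10) and 1 fall (MCM7, −0.21 ± 0.07) among 28, against 7.37% and 6.93% over all genes. Both calls were lost without PTPRK.C1089S replicate 1 or 4 or WT replicate 2 or 4, and 1 call was left without PTPRK.C1089S replicate 2 or 5 or WT replicate 3 or 5. CDK1 and MCM7 lost the call under 5 and 10 of 16 alternatives (largest edgeR adjusted p 0.126 and 0.15). MKI67, the common marker of cycling cells, was at −0.13 ± 0.13 and not called. Of 23 hypoxia and glycolysis genes 0 were called by edgeR, with 1 at an unadjusted p under 0.05 and 1 called by DESeq2, and 1 was called without PTPRK.C1089S replicate 2 or WT replicate 1. Of 23 genes of the ER stress and ATF4 response 0 were called by edgeR, with 5 at an unadjusted p under 0.05 and 1 called by DESeq2, and 1 was called by edgeR without PTPRK.C1089S replicate 3, 4 or 5 or WT replicate 5. Among 29 cholesterol and fatty acid genes 4 were lower and 1 higher, and the 5 calls became 3 without PTPRK.C1089S replicate 4 or 5 and 2 without PTPRK.C1089S replicate 1 or 2 or WT replicate 2 or 4, with the squalene synthase FDFT1 at 134, 126, 123, 126 and 112 CPM against 154, 166, 166, 158 and 161 CPM (−0.37 ± 0.06, edgeR adjusted p = 0.000208). FDFT1 lies among 50 consecutive tested genes of chromosome 8 with a median of −0.23, of which 10 were called lower and 0 higher. Among 18 NRF2 targets 2 were lower and 1 higher, and the 3 calls became 1 without PTPRK.C1089S replicate 1 or 4 or WT replicate 2 or 3, with AKR1C1 at −0.74 ± 0.21 and GPX3 at 0.47 ± 0.14. AKR1C1 was not called without PTPRK.C1089S replicate 1 or WT replicate 2, and GPX3 not without PTPRK.C1089S replicate 4 or WT replicate 3 (largest edgeR adjusted p 0.0599 and 0.0711). The 11 colorectal epithelial markers gave 4 lower and 1 higher (all genes: 6.93% and 7.37%). Of these 5 calls, 2 were left without PTPRK.C1089S replicate 1 or 2 or WT replicate 2, and 3 without WT replicate 1. CEACAM5 and GPA33 lost the call under 11 and 5 of 16 alternatives (largest edgeR adjusted p 0.14 and 0.0975). LGALS4, a galectin, was at 1494, 1620, 1566, 1266 and 1641 CPM against 2108, 2522, 2179, 1935 and 2129 CPM (−0.52 ± 0.11), with no overlap, and its 50 neighbours on chromosome 19 had a median of −0.26.

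Calls were spread unevenly over the chromosomes. On chromosome 19, 268 of 1346 tested genes were lower (19.9%) and 40 higher, with a median log2 fold change of −0.17, against 6.93% lower and a median of 0.01 over all genes. Chromosome 13 had 54 lower and 13 higher of 309, chromosome 11 had 175 lower and 40 higher of 1099 and chromosome 9 had 100 lower and 28 higher of 702. Chromosomes 10 and 18 leaned the other way, with 79 higher and 15 lower of 734 and 31 higher and 7 lower of 268. In windows of 50 consecutive tested genes, 24 of 364 windows had a median below −0.2 and 4 had one above 0.2, from −0.38 to 0.23, and 11 of the 24 lay among the 26 windows of chromosome 19. The lowest window, on chromosome 19 from 40691514 to 42255132, held 27 genes called lower and 2 higher, and AXL and CEACAM7 lie within it. On chromosome 8 the windows between 232137 and 42332460 had medians from −0.24 to −0.21. Values of neighbours are given above for some genes only. The zinc finger (ZNF) genes of chromosome 19, a set chosen after values were seen, were lower in 40 of 189 (21.2%), against 228 of 1157 (19.7%) for its other genes and 13 of 246 (5.29%) for ZNF genes elsewhere. The medians of the neighbours of the interferon-stimulated, mesenchymal and colonocyte genes were 0.04, 0.07 and 0.03, and the part of position in the changes of single genes was not tested.

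**Figure D5:**
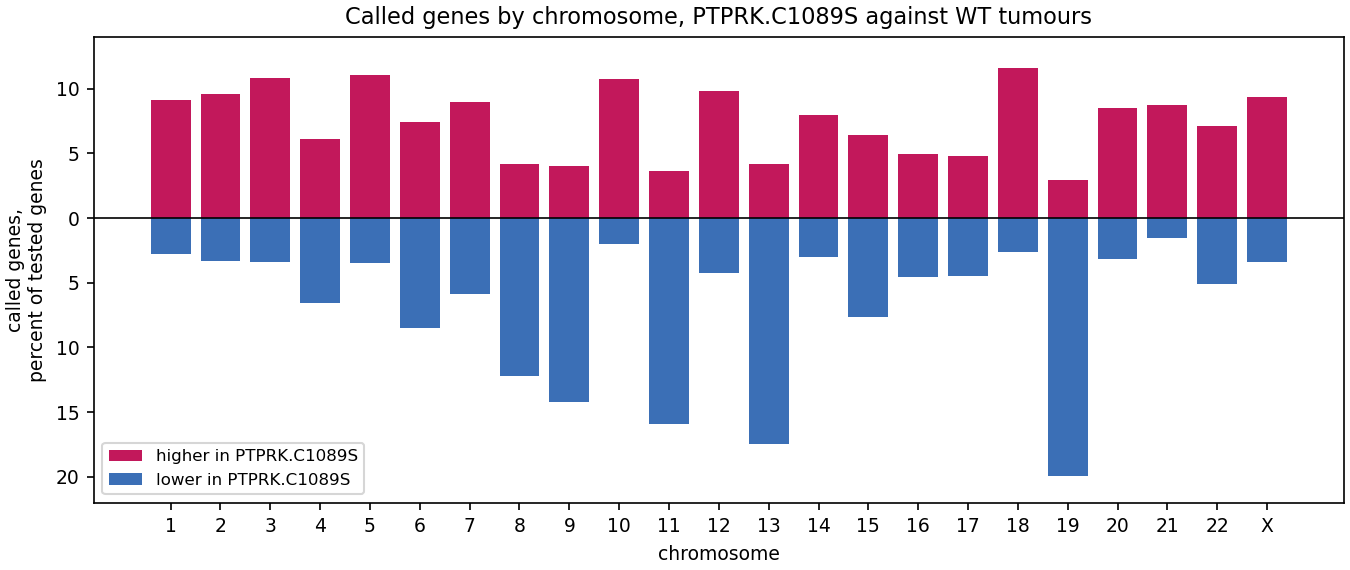
Share of tested genes called higher (red, above 0) and lower (blue, below 0) in PTPRK.C1089S against WT tumours on each chromosome, in percent of the tested genes. Chromosome 19 has the deepest blue bar, 19.9%, followed by chromosomes 13, 11 and 9.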

How the data were processed

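The authors deposited 1 table of raw counts, reads per human gene for each of 25 tumours. Per the labels and the study's methods, they trimmed reads with trim_galore, aligned them with HISAT2 (2.1.0 in the submitters' processing notes) separately to human GRCh38 and mouse GRCm38, discarded alignments under a mapping quality of 20 and counted exon overlaps with SeqMonk without regard to strand, so overlapping genes share reads. Their later removal of lncRNA and antisense genes and their Intensity Difference filter were not applied.

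Of 38179 rows, 51 repeated a gene identifier and the row with the larger total was kept. The 25 tumours were fitted together in 5 groups taken from the genotype labels, with edgeR 4.0.16 in R 4.3.3: TMM scaling, filterByExpr, robust quasi-likelihood test, Benjamini-Hochberg adjustment, threshold 0.05. SE is the log2 fold change divided by the root of the test statistic. CPM per tumour adds 0.5 before the log2. DESeq2 1.42.0, other scaling, no filter, fewer tumours, a replicate block and each tumour left out made 16 alternatives. DESeq2 in the other comparisons was added after seeing the data. Only the edgeR fit was tested on simulated counts, in which few genes were changed. The alternatives, the windows and the list counts were not tested that way.

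The comparison and the 22 gene lists were chosen with earlier results of these data known. Genes named are PTPRK, the 12 largest rises and falls without overlap among called genes above a mean log2 CPM of 2, up to 6 called members of each list (12 interferon-stimulated), the PTPRK partner list, and further list members to describe their group, chosen after their values were seen. A few list members are counted in their lists but not reported here by name. At 43.7 to 59.4 M counts per tumour, the spread between tumours and not counting error sets the precision for most genes.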

Additional observations from a re-analysis of the deposited data

Results flagged for a closer look

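In each of 252 groups of 5 values, the PTPRK.C1089S or the WT tumours for each of 126 named genes, the highest and the lowest tumour were compared with the nearest other one. In 13 groups 1 tumour lay further away than Dixon's 95% limit allows, and chance alone flags about 1 in 20 groups. PTPRK.C1089S replicate 4 was that tumour for 8 genes. It was highest for SAMD9L, at 14.1 CPM with the next at 6.86, for DDX60L, at 37.4 CPM with the next at 24.2, for BIRC3, at 34.5 CPM with the next at 25.4, for WWTR1, at 19.3 CPM with the next at 8.67, and for CYBRD1, at 6.38 CPM with the next at 3.88. It was lowest for MCM7, at 234 CPM with the next at 258, for TM7SF2, at 22.7 CPM with the next at 31.6, and for FTL, at 1314 CPM with the next at 1526. PTPRK.C1089S replicate 5 was lowest for FN1, at 2.44 CPM with the next at 3.70. Among WT tumours, replicate 3 was lowest for DHX58, at 5.63 CPM with the next at 7.55, replicate 1 was highest for ARHGAP5, at 129 CPM with the next at 116, and for KRT20, at 1019 CPM with the next at 808, and replicate 2 was highest for CDX2, at 67.0 CPM with the next at 45.3. What set these tumours apart was not tested.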

How the results depend on the processing

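PTPRK kept its call under all 16 alternatives, with a log2 fold change of 2.19 to 2.34 when single tumours were left out. With single tumours left out, 919 to 1469 genes were higher and 777 to 1232 lower, the lowest of both without WT replicate 2. The other settings gave 1118 (no filter on low counts) to 1561 genes higher (DESeq2) and 1116 to 1526 lower.

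With single tumours left out, the members called were 1 to 3 (1 with all tumours) for EGFR genes, 3 to 6 (6) for ERK output, 5 to 12 (11) for junctions, 3 to 6 (6) for PTPRK partners, 3 to 5 (4) for Wnt genes, 2 to 6 (6) for Hippo genes, 8 to 14 (13) for colonocyte genes, 0 to 2 (2) for the cell cycle, 0 to 1 (0) for hypoxia and for ER stress, 2 to 5 (5) for cholesterol genes, 1 to 4 (3) for NRF2 targets and 2 to 5 (5) for colorectal markers. In the fit of the 10 tumours alone, 2 EGFR genes, 13 goblet genes (8 otherwise), 8 cholesterol genes and 1 host marker (0 otherwise) were called. DESeq2 called 3 EGFR genes, 1 hypoxia gene and 1 ER stress gene. Without the filter, 7 junction genes, 1 cell cycle gene, 3 cholesterol genes and 3 colorectal markers were called. The fit of 24 tumours, without PTPRK replicate 6, and the replicate block each called 1 ER stress gene. Interferon-stimulated genes called ranged from 51 to 62 over all settings. FAM83B, not called, at 0.05, ranged from −0.017 without PTPRK.C1089S replicate 4 to 0.086 without PTPRK.C1089S replicate 1. The cause of these changes was not tested.

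Same-numbered PTPRK.C1089S and WT tumours did not deviate together (r from −0.13 to 0.09 over 5 pairs), so no pairing by number was seen. So few pairs cannot exclude one, and other shared blocks of tumours were not tested. With the replicate block 1497 genes were higher and 1424 lower, and 3 of 125 named genes besides PTPRK lost the call while 1 gained it. At this depth the listed interferon transcripts and NKX2-2 are limited by counts.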
